A study of Canis lupus familiaris with 14 samples.

Results

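The genes described here encode the nuclear subunits of the mitochondrial respiratory chain and ATP synthase. They were taken from a canine lymphoma study by symbol alone, as every gene on the array whose single annotated symbol starts with NDUF, UQCR or ATP5, is SDHA, SDHB, SDHC or SDHD, or starts with COX4, COX5, COX6, COX7 or COX8. This gave 70 of the 15115 genes on the array, read by 139 of the 29254 probe sets that carry exactly 1 symbol. Of the 70, 60 encode structural subunits, 33 of complex I, 4 of complex II, 7 of complex III, 7 of complex IV and 9 of complex V. The others are the 7 complex I assembly factors NDUFAF1 to NDUFAF7, the ATP synthase inhibitor ATP5IF1, COX7A2L, which helps to join complexes into supercomplexes, and NDUFA4L2, a paralog of NDUFA4.

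The data are 14 GeneChip Canine Genome V2.0 Arrays, each hybridised with amplified RNA from a fine needle aspirate of 1 lymph node. The lymphomas came from 10 companion dogs of several breeds seen at 3 clinics and were aspirated before a PI3K inhibitor was given. Of these, 7 are labelled B-cell (RB03, RB07, RB10, RB16, FS21, NE41 and NE42) and 3 are labelled T-cell (FS22, FS25 and NE45), and FS21, RB07, FS22 and FS25 were relapses after chemotherapy. The 4 normal nodes came from 3 colony Beagles (63, 2970, and the nodes 3024l and 3024r of 1 dog), so colony, clinic and disease cannot be told apart, and FS22 is the only lymphoma from a Beagle. An aspirate is a mixture of cells, and in such bulk samples fewer cells of a type and less RNA per cell cannot be told apart.

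Complex I takes electrons from NADH and complex II takes them from succinate, and both pass them to ubiquinone. Complex III passes the electrons on to cytochrome c, complex IV passes them to oxygen, and complex V, the ATP synthase, uses the proton gradient that complexes I, III and IV build. Complex II is also an enzyme of the citric acid cycle. Most subunits are encoded in the nucleus and imported, and a few are encoded in the mitochondrion. Lymphocytes are known to raise both glycolysis and respiration when they are activated and begin to divide.

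Several arrays went against their labels in some markers or stood apart, which bears on the comparisons. RB07 and RB10, labelled B-cell, had log2 signals of 12.11 and 12.54 for CD3E, part of the T-cell receptor, beside 12.48 and 12.56 in the T-cell lymphomas FS25 and NE45. FS22, labelled T-cell, had 8.80 for CD3E and 10.09 for CD79A, part of the B-cell receptor, which was at 2.55 in FS25 and 7.87 in NE45. CD79B, CD22 and PAX5 were likewise higher in FS22 than in FS25 and NE45. Another B-cell marker, MS4A1, went the other way, at 4.90 in FS22, 6.48 in FS25 and 10.89 in NE45. MS4A1 was at 10.40 in RB10 and 2.89 in RB07. On normal node 3024l the 3' to 5' ratio of the GAPDH control probe sets, a measure of RNA integrity, was 23.2, whereas it was between 3.30 and 8.94 on the other 13 arrays. The study reported that the RNA of every sample passed its quality control, which included the RNA Integrity Number, and that no array of a normal node failed. The median signal of an array was between 85.5 and 131, and the number of arrays limits the precision of every value here.

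Most of these genes were read brightly and varied little between dogs. Over all 14 arrays, 67 of the 70 members passed the filter, a signal of at least 100 on at least 3 arrays, as did 9400 of the 15115 genes. Among the 67, the median over genes of the mean log2 signal was 10.72, and it was 8.02 over the 9400 genes, and 62 of the 67 lay above 8.02. A signal depends on the probes as well as on the transcript, so these levels order the brightness of probe sets, not the amounts of RNA. The median SD among the 10 lymphomas was 0.39 in log2 signal for the 67 members and 0.69 for the 9400 genes, and spread fell with brightness among genes in general. For genes with a mean log2 signal of 12 and over it was 0.28 for members and 0.38 for all genes, and between 8 and 10 it was 0.48 for members and 0.54 for all genes.

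The highest signals belonged to COX5B, a subunit of complex IV (mean log2 signal 15.03 over 14 arrays), to ATP5PO, which joins the catalytic head of the ATP synthase to its stalk (14.12), and to the inhibitor ATP5IF1 (13.99). The lowest belonged to 3 genes that encode tissue-restricted forms of subunits or relatives, NDUFA4L2 (4.01), the muscle form COX6A2 (4.54) and COX4I2 (4.79), the lung form of subunit 4. The mean signals of these 3 genes did not pass the filter, so they entered none of the comparisons below and were tested only in alternatives with no filter or over brighter probe sets. The signal of COX6A2 was between 1.88 and 6.02 in the lymphomas with a median of 4.01, against 5.29, 6.10, 6.60 and 6.58 in 2970, 3024l, 3024r and 63, all below the log2 value of a signal of 100, although 1 of its 2 probe sets reached 100 on 5 arrays. The largest SD among lymphomas were 1.84 for NDUFA4L2, 1.49 for COX6A2 and 1.38 for NDUFC2, an accessory subunit of complex I with a mean of 5.81. NDUFC2 averages a dim probe set, with a mean log2 signal of 3.68, and a brighter one at 7.94 that reached 100 on 13 arrays. COX4I1, the common form of subunit 4, had a bright signal, with a mean of 13.33.

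The first comparison set the study's 4 B-cell lymphomas FS21, NE42, RB03 and RB16 against normal nodes 63, 2970 and 3024r, with 1 array per dog. The study chose these lymphomas in part because their expression profiles lacked a T-cell signature. In this comparison 5 of the 66 members tested rose and 0 fell. The test was limma, a moderated linear model fitted over all 8295 genes tested, with a threshold of 0.05 on the adjusted p. Over all genes, 3.48% rose and 7.39% fell by the same rule. The 5 were ATP5F1A and the complex I assembly factor NDUFAF2, with log2 differences of 1.46 and 1.38, then NDUFC1, UQCR10 and NDUFB4, which encode small subunits of complexes I and III, with 1.30, 1.05 and 0.98. The log2 difference was positive for 56 members and negative for 10, with a median of 0.44, whereas the median over all 8295 genes was -0.06. At an unadjusted p under 0.05, 20 members were higher and 2 lower, 30.3% and 3.03% of those tested, against 12.3% and 17.6% of all genes.

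**Figure D1:**
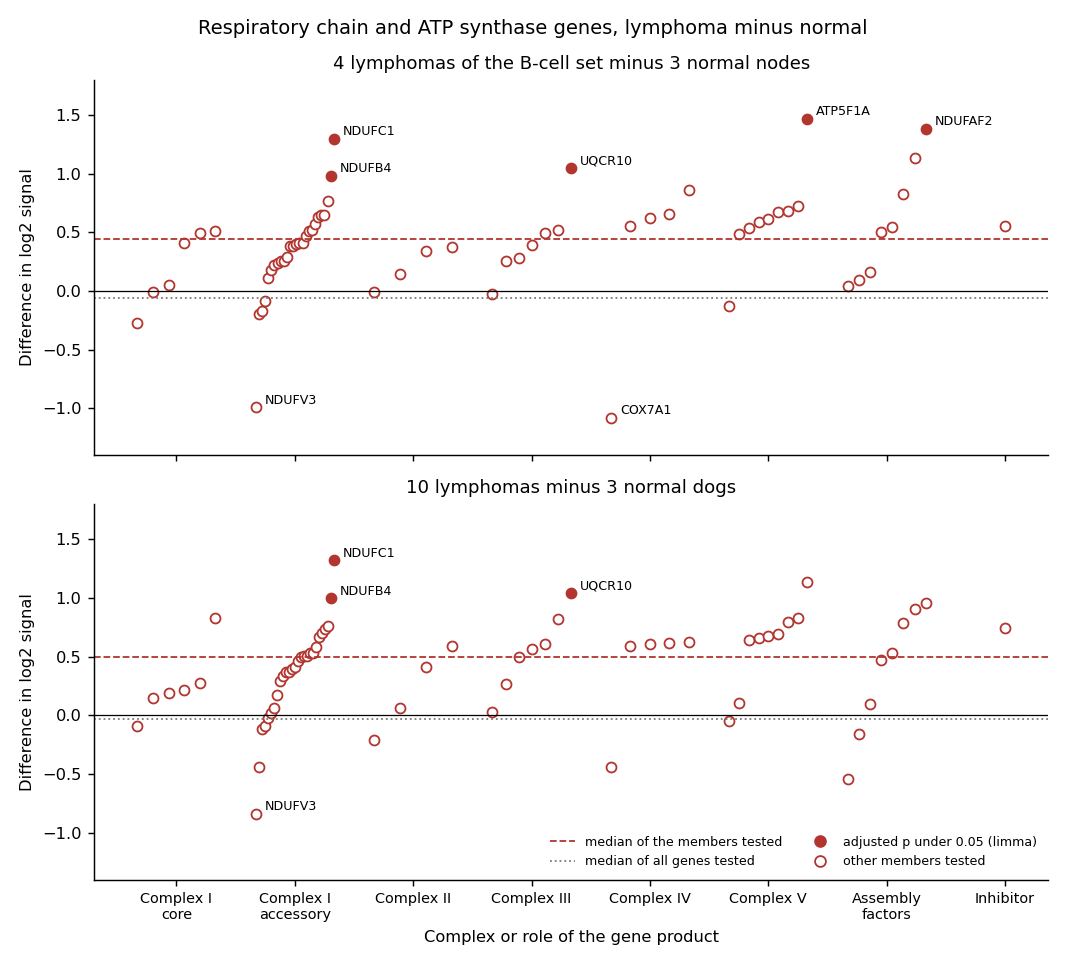
Difference in log2 signal (vertical axis) of each member tested, grouped by complex or role (horizontal axis), for the 4 lymphomas of the B-cell set minus 3 normal nodes (upper panel) and for 10 lymphomas minus 3 normal dogs (lower panel). Filled points passed an adjusted p of 0.05 from limma, the dashed line is the median of the members (0.44 above, 0.50 below) and the dotted line that of all genes tested (-0.06 above, -0.03 below).

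Bright genes in general were higher in the lymphomas, so the shift of the members has to be read at their own level of signal. Among the 338 genes with a mean log2 signal of 12 and over, 81.1% had a positive difference in the B-cell set, with a median of 0.47, and the 18 members among them had a median of 0.54 with 17 positive. Between 10 and 12 the medians were 0.38 for 25 members and 0.20 for all 1383 genes. Between 8 and 10 they were 0.49 for 19 members and 0.00 for all 3012 genes. Under 8 they were 0.11 for 4 members and -0.42 for all 3562 genes. At every level the members' median was the higher one, by 0.08 at the bright end. These levels were set after the values had been seen, and no test was made on them.

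NDUFAF2 (Entrez Gene 478067) is an assembly factor that acts late in the building of complex I. Its log2 signal was 9.49 in FS21, 9.55 in NE42, 10.03 in RB03 and 10.10 in RB16, against 8.39 in 63, 8.16 in 2970 and 8.69 in 3024r. Every lymphoma of the set lay above every normal of the set. The log2 difference was 1.38, 2.60-fold (standard error, SE, 0.27, adjusted p = 0.0232 from limma), although 3024l, the node left out of this comparison, had 9.33 and lay close to the lymphomas. The call was lost without any 1 of the 3 normals (adjusted p = 0.0865 without 3024r, 0.0881 without 63 and 0.123 without 2970). Calls over all genes then fell as well, from 902 of 8295 to 25 of 7829 without 3024r, 70 of 7785 without 63 and 15 of 7812 without 2970.

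NDUFC1 (Entrez Gene 607943) and NDUFB4 (Entrez Gene 478577) encode accessory subunits in the membrane arm of complex I. NDUFC1 had log2 signals of 9.80 in FS21, 10.10 in NE42, 9.85 in RB03 and 9.71 in RB16, against 8.55 in 63, 8.19 in 2970 and 8.97 in 3024r. The groups did not overlap, and the log2 difference was 1.30 (SE 0.26, adjusted p = 0.0251 from limma). NDUFB4 had 11.26 in FS21, 11.20 in NE42, 11.02 in RB03 and 11.27 in RB16, against 10.33 in 63, 9.83 in 2970 and 10.46 in 3024r. Its groups did not overlap either, with a log2 difference of 0.98 (SE 0.24, adjusted p = 0.0407 from limma). The call of NDUFC1 was lost without any 1 normal (adjusted p = 0.0731 without 3024r, 0.093 without 63 and 0.124 without 2970). That of NDUFB4 held only without RB03, and the adjusted p was between 0.0688 and 0.181 without FS21, NE42, RB16 or any 1 normal.

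UQCR10 (Entrez Gene 486347) encodes a small subunit of complex III, with signals on the log2 scale of 12.16 in FS21, 12.44 in NE42, 12.08 in RB03 and 12.26 in RB16, against 11.12 in 63, 10.78 in 2970 and 11.66 in 3024r. All 4 lymphomas lay above all 3 normals, and the log2 difference was 1.05 (SE 0.27, adjusted p = 0.0492 from limma). ATP5F1A (Entrez Gene 480149) encodes the alpha subunit of the catalytic head of the ATP synthase, with signals on the log2 scale of 10.28 in FS21, 10.76 in NE42, 9.34 in RB03 and 10.43 in RB16, against 8.99 in 63, 8.54 in 2970 and 8.68 in 3024r. RB03 lay closest to the normals, and the log2 difference was 1.46 (SE 0.36, adjusted p = 0.0437 from limma). UQCR10 missed the threshold whichever of the 7 arrays was left out (adjusted p between 0.0526 and 0.199). ATP5F1A passed without RB03 (adjusted p = 0.00952) and had between 0.0768 and 0.18 without FS21, NE42, RB16 or any 1 normal.

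**Figure D2:**
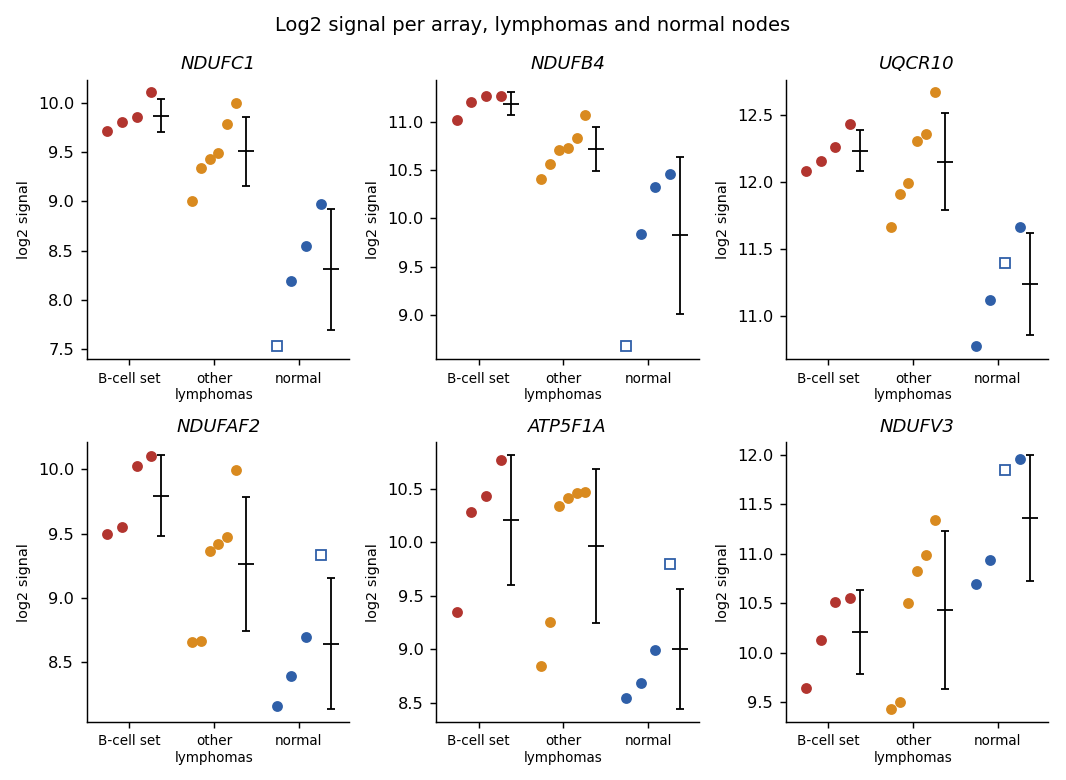
Log2 signal (vertical axis) of 6 members on each array, for the B-cell set, the other lymphomas and the normal nodes (horizontal axis), with the mean ± SD of the arrays drawn in each group. The open square is node 3024l, and NDUFV3 is the 1 member shown that was lower in the B-cell set (-0.99).

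The subunits of complex I were higher on balance, with 26 of the 32 tested positive, a median log2 difference of 0.39 and 2 passing the test, NDUFC1 and NDUFB4. Of the 6 core subunits among them, which carry the electron path and its iron-sulfur clusters and flavin, 4 were positive and none passed, with differences between -0.27 for NDUFS7 and 0.51 for NDUFS3. Among the accessory subunits, NDUFS5 had a mean log2 signal of 13.59 ± 0.25 in the 4 lymphomas and 12.83 ± 0.02 in the 3 normals (SD), a log2 difference of 0.76 that missed the threshold (adjusted p = 0.072 from limma). NDUFV3, an accessory subunit of the NADH-oxidising arm, was the 1 member tested with every lymphoma below every normal. It averaged 10.21 ± 0.43 in the lymphomas and 11.20 ± 0.67 in the normals (SD), a difference of -0.99 that did not pass (SE 0.39, adjusted p = 0.135 from limma). For comparison, 18% of all genes had every lymphoma below every normal, and 13.7% had every lymphoma above every normal, as 24 members did.

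The 7 complex I assembly factors all had positive differences, between 0.04 for NDUFAF3 and 1.38 for NDUFAF2, with a median of 0.55. Of these, 4 were higher at an unadjusted p under 0.05, against 12.3% of all genes, and NDUFAF2 alone passed after adjustment. NDUFAF7, a methyltransferase that modifies a core subunit during assembly, averaged 9.54 ± 0.58 in the lymphomas and 8.40 ± 0.18 in the normals (SD), with an adjusted p of 0.0772 from limma. NDUFAF1, a factor of the membrane arm intermediate, had a difference of 0.83 (adjusted p = 0.113 from limma). Without RB03 both passed (adjusted p = 0.0262 for NDUFAF7 and 0.0263 for NDUFAF1 from limma), as did 1207 of 7985 genes in either direction.

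Complex II showed the smallest median of the 5 complexes, 0.24, with none of its 4 subunits passing. The differences were 0.34 for the flavoprotein SDHA, -0.01 for the iron-sulfur subunit SDHB, and 0.14 and 0.38 for the membrane anchors SDHC and SDHD (adjusted p between 0.263 and 0.988 from limma). The lymphomas were tightly grouped for SDHD, at 10.43 ± 0.04 against 10.05 ± 0.21 in the normals (SD), with no overlap. In complex III, 6 of 7 subunits were positive, with a median of 0.39, and UQCR10 passed. UQCRFS1, the Rieske iron-sulfur protein, had a difference of -0.03, and the core proteins UQCRC1 and UQCRC2 had 0.39 and 0.52, neither past the threshold.

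In complex IV, 5 of the 7 subunits could be tested, 4 were positive and none passed, with a median of 0.62. COX5B averaged 15.33 ± 0.23 in the lymphomas and 14.71 ± 0.21 in the normals (SD), a difference of 0.62 with no overlap (adjusted p = 0.125 from limma). COX4I1 had a difference of 0.56, NDUFA4 of 0.65 and COX8A of 0.86 (adjusted p = 0.204, 0.181 and 0.112 from limma). COX7A1, the form of subunit 7A best known from heart and muscle, had the lowest difference of all members tested, -1.08. It averaged 7.38 ± 0.60 in the lymphomas and 8.46 ± 0.31 in the normals (SD), the groups overlapped, and the adjusted p was 0.101 from limma. Without RB03 its difference was -1.33 and the adjusted p 0.0342 from limma, past the threshold. Calls over all genes then rose as well, from 902 of 8295 to 1207 of 7985.

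In complex V, 8 of 9 subunits were positive, with a median of 0.62, although ATP5F1A alone passed. Every lymphoma lay above every normal for 6 of them, against 13.7% of all genes. The beta subunit ATP5F1B averaged 14.31 ± 0.31 in the lymphomas and 13.59 ± 0.08 in the normals (SD), a difference of 0.72 (adjusted p = 0.0996 from limma). ATP5PO had 0.68 and the gamma subunit ATP5F1C also 0.68 (adjusted p = 0.083 and 0.0994 from limma). ATP5MC1, ATP5MC2 and ATP5MC3 encode the same mature ring subunit, and their differences were 0.62, 0.53 and 0.49 (adjusted p = 0.308, 0.209 and 0.319 from limma). The inhibitor ATP5IF1 had 0.56 (adjusted p = 0.199 from limma), and the delta subunit ATP5F1D, a dim gene, had -0.12.

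The second comparison set all 10 lymphomas against the 3 normal dogs, with the nodes of dog 3024 averaged. It shares 4 lymphomas and the normal dogs with the first, so its values are not separate support. Here 3 of 67 members rose and 0 fell, against 1.03% of the 9400 genes that rose and 2.6% that fell. The difference was positive for 56 members and negative for 11, with a median of 0.50, whereas the median over all genes was -0.03. By level of signal, the medians at 12 and over were 0.59 for members and 0.34 for all genes. Between 10 and 12 they were 0.34 and 0.15, between 8 and 10 they were 0.51 and 0.02, and under 8 they were 0.10 and -0.27. At an unadjusted p under 0.05, 28 members were higher and none lower, against 8.24% and 10.4% of all genes. Every lymphoma lay above every normal array for 8 members, against 1.71% of all genes, and none had every lymphoma below, against 3.55%. The 8 were NDUFC1, NDUFAF6, NDUFS5, NDUFA12, UQCR10, ATP5F1B, ATP5PO and ATP5J2.

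NDUFC1 had log2 signals from 9.0 to 10.10 in the lymphomas, with a median of 9.75, against 8.19, 8.25 and 8.55 in the normal dogs. The groups did not overlap, and the log2 difference was 1.32, 2.50-fold (SE 0.25, adjusted p = 0.0165 from limma). UQCR10 ranged from 11.67 to 12.67 with a median of 12.21, against 10.78, 11.12 and 11.53 in the normal dogs. It too had no overlap by array, but barely, with 11.668 in FS22 and 11.664 in node 3024r. Its difference was 1.04 (SE 0.25, adjusted p = 0.0388 from limma). NDUFB4 ranged from 10.41 to 11.27 with a median of 10.93, against 9.57, 9.83 and 10.33 in the normal dogs, a difference of 1.00 (SE 0.25, adjusted p = 0.0479 from limma). By array its groups overlapped, since FS25 had 10.41 and node 3024r had 10.46.

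These 3 calls depended on few normal dogs. Without dog 2970 or without dog 3024 no member passed, and without dog 63, FS21, NE42 or RB16 only 1 did. Calls over all genes fell as well, from 341 of 9400 to 3 of 9247 without 2970, 57 of 9110 without 3024 and 87 of 9220 without 63. They were 243 of 9309 without FS21, 228 of 9335 without NE42 and 236 of 9287 without RB16. With node 3024r alone for its dog, NDUFC1 and UQCR10 passed and NDUFB4 had an adjusted p of 0.119 from limma. With node 3024l alone the same 2 genes passed, and NDUFB4 had 0.0561. The medians of the members were 0.39 and 0.57 with these nodes.

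By complex, the medians over the 10 lymphomas were 0.37 for the 33 subunits of complex I, 0.24 for complex II, 0.57 for complex III, 0.61 for complex IV and 0.68 for complex V. All 7 subunits of complex III were positive. Of these, 5 were higher at an unadjusted p under 0.05, as were 7 of the 9 of complex V, against 8.24% of all genes. ATP5F1B had a difference of 0.83, NDUFAF6 of 0.78 and ATP5IF1 of 0.75, which missed the threshold (adjusted p = 0.0557, 0.0763 and 0.0841 from limma). ATP5F1A and NDUFAF2, called in the B-cell set, had 1.13 and 0.96 here and did not pass (adjusted p = 0.135 and 0.138 from limma). NDUFV3 had the lowest difference of the members tested, -0.84 (adjusted p = 0.306 from limma).

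Of the 70 members, 44 were read by several probe sets, which did not always move alike. The 3 probe sets of ATP5F1A had differences of 3.21, 0.61 and 0.57 in the B-cell set, and the first was dim, with a mean log2 signal of 4.36 and a signal of at least 100 on 2 arrays. When each gene's mean was taken over probe sets with a signal of at least 100 on at least 3 arrays only, the difference of ATP5F1A was 0.59 and its call was lost (adjusted p = 0.117 from limma). The other 4 calls of the B-cell set held under that rule, which was chosen after the values had been seen, beside 3.33% of all genes. Over all lymphomas NDUFC1 and UQCR10 held and NDUFB4 was lost (adjusted p = 0.0509 from limma), beside 0.818% of all genes. NDUFC1 also had a dim probe set, with a mean log2 signal of 6.19, whose difference in the B-cell set was 2.01, whereas its brighter sets had 0.88 and 1.01.

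Over all lymphomas the same dim set of NDUFC1 had 2.81, whereas the brighter ones had 0.72 and 0.44. With the brightest probe set of each gene alone, none of the 3 calls over all lymphomas held, and 3 other members passed. In that setting 284 of 10573 genes passed in either direction. NDUFC1 then had a difference of 0.44, UQCR10 of 0.87 and NDUFB4 of 1.00 (adjusted p = 0.525, 0.107 and 0.0536 from limma). The sets of NDUFV3 had -1.68 and -0.30 in the B-cell set, and the 6 of UQCR11, a small subunit of complex III, ran from -0.59 to 1.34. Tested 1 by 1, 2 of 128 member probe sets rose in the B-cell set, against 2.49% of all probe sets, and 5 of 129 rose over all lymphomas, against 0.796%.

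**Figure D3:**
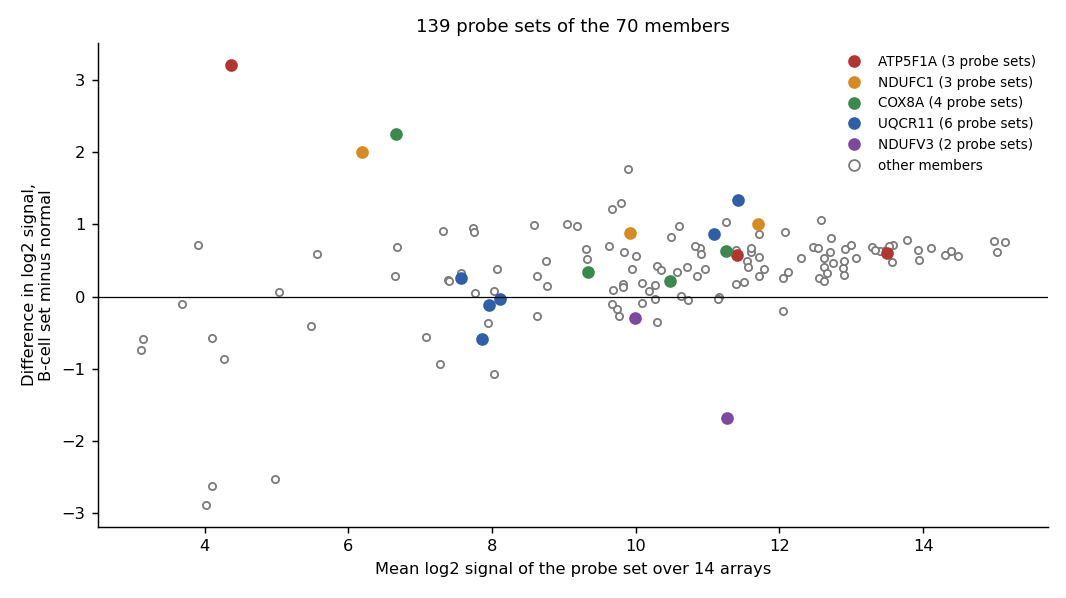
Mean log2 signal over 14 arrays (horizontal axis) and difference in log2 signal, B-cell set minus normal (vertical axis), of the 139 member probe sets, with those of ATP5F1A, NDUFC1, COX8A, UQCR11 and NDUFV3 coloured. The dim probe set of ATP5F1A stands at 3.21, above its brighter ones at 0.61 and 0.57.

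Single arrays differed in the level of the members as a whole. The deviation of an array was taken as the median over the 67 members of the log2 signal minus that gene's mean over the arrays. It was highest in FS21 at 0.40, RB07 at 0.36, NE42 at 0.31 and RB10 at 0.25, and between -0.04 and 0.15 in the other 6 lymphomas. In the normal nodes it was -0.02 in 3024r, -0.30 in 2970, -0.32 in 63 and -0.49 in 3024l. Node 3024r lay above NE45, at -0.04, so the groups overlapped. The nodes of dog 3024 differed by more than any pair of lymphomas did, and 3024l was the array with the GAPDH ratio of 23.2. The same deviation over all 9400 genes was -0.25 in 3024l and between 0.12 and 0.24 in the other normal nodes.

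**Figure D4:**
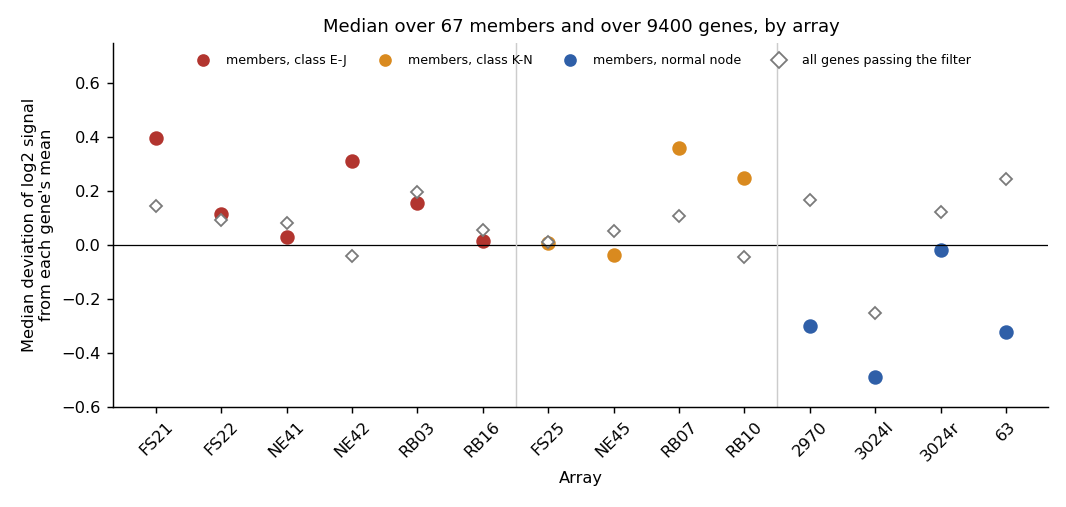
Median deviation from the mean over arrays, in log2 signal (vertical axis), for each of the 14 arrays (horizontal axis: class E-J, class K-N, normal nodes). Coloured points are the 67 members and open diamonds all 9400 genes, and members ran from 0.40 in FS21 to -0.49 in 3024l.

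The study's clustering placed FS21, NE41, NE42, RB03, RB16 and FS22 under the letters E to J and RB07, RB10, FS25 and NE45 under K to N. These classes were drawn from the same profiles, so the values are given as a description with no test. The members as a whole hardly separated the classes. Their median difference from normal nodes was 0.49 in class E-J and 0.47 in class K-N, and that between the classes was 0.02, with 35 of 67 members higher in E-J. Classes did not overlap for 2 members higher in E-J and 2 lower, 2.99% each, beside 6.26% and 4.45% of all genes.

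COX7A2L (Entrez Gene 475739) was higher in class E-J. Its log2 signal was between 10.30 and 10.87 in class E-J with a mean of 10.58 ± 0.24, against 8.93, 9.10, 10.06 and 10.13 in NE45, RB10, RB07 and FS25, and 10.84 ± 0.48 in the normal nodes (SD). ATP5MC2 (Entrez Gene 477595) averaged 13.45 ± 0.34 in class E-J and 12.58 ± 0.21 in class K-N, with 13.00 ± 0.14 in the normal nodes between them (SD). Class K-N minus normal nodes was thus -1.28 for COX7A2L and -0.42 for ATP5MC2 on the log2 scale.

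The accessory subunits NDUFA3 and NDUFB5 ran the other way. NDUFA3 averaged 10.19 ± 0.29 in class E-J and 10.90 ± 0.25 in class K-N, with 9.81 ± 0.43 in the normal nodes (SD). NDUFB5 averaged 10.20 ± 0.24 in class E-J and 10.71 ± 0.21 in class K-N, with 9.62 ± 0.27 in the normal nodes (SD). COX7A1 had the widest gap between class means, with 7.36 ± 0.49 in class E-J and 8.75 ± 1.27 in class K-N (SD). Its values in class K-N were split, 9.93 in RB07 and 9.76 in FS25 beside 7.79 in RB10 and 7.51 in NE45. Of the NDUFAF assembly factors, 6 of 7 were higher in class E-J, and NDUFAF1 had 10.94 ± 0.37 there and 10.11 ± 0.77 in class K-N (SD).

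**Figure D5:**
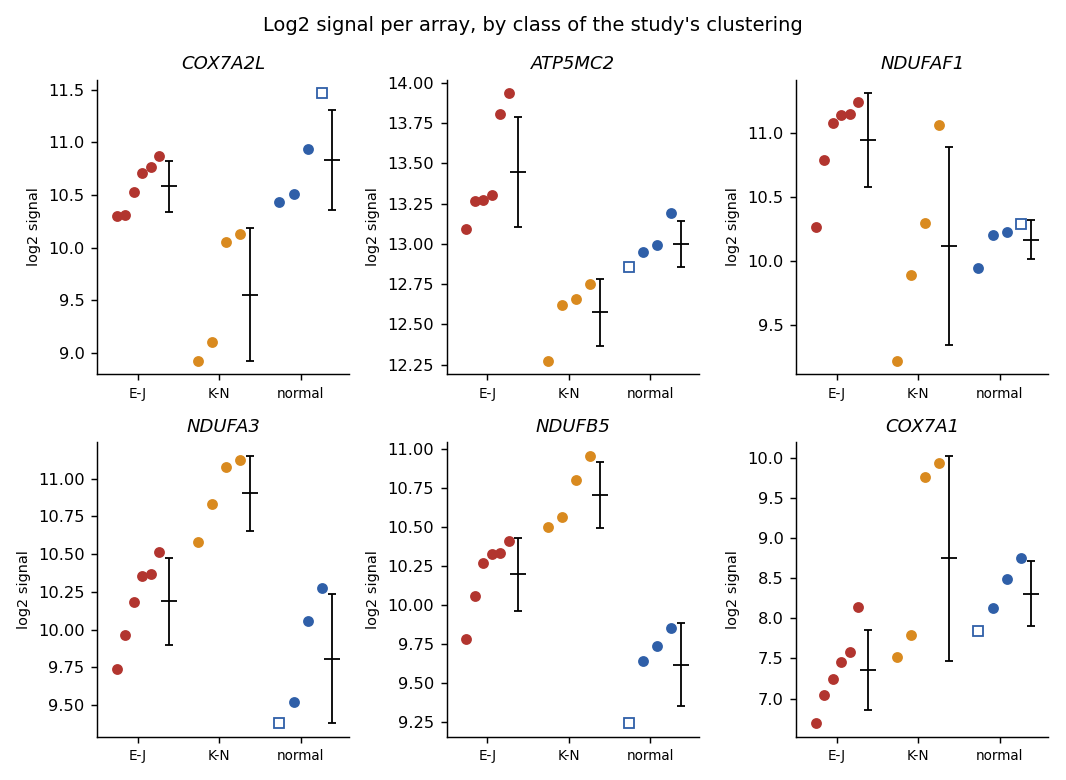
Log2 signal (vertical axis) of 6 members on each array by class E-J, class K-N and normal nodes (horizontal axis), with the mean ± SD of each group. COX7A2L and ATP5MC2 did not overlap between the classes and were higher in E-J, NDUFA3 and NDUFB5 did not overlap and were lower, and the open square is node 3024l.

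Between the 7 B-cell and the 3 T-cell lymphomas as labelled, no member passed limma's test with Benjamini-Hochberg adjustment, nor did any of the 8567 genes tested (0%). At an unadjusted p under 0.05 no member stood out either, beside 2.29% of all genes higher and 1.37% lower. The median difference was 0.21 for members, with 52 of 67 positive, and 0.00 for all genes. At a mean log2 signal of 12 and over the medians hardly differed, 0.143 for members and 0.136 for all genes. Between 10 and 12 they were 0.21 and 0.03, between 8 and 10 they were 0.29 and 0.01, and under 8 they were 0.32 and -0.04. NDUFB4 was the 1 member whose groups did not overlap, at 11.05 ± 0.21 in B-cell and 10.56 ± 0.15 in T-cell lymphomas (SD), a difference of 0.49 (SE 0.23, adjusted p = 0.956 from limma), beside 0.432% of all genes with every B-cell lymphoma above. The largest difference was that of the dim gene ATP5F1D, 1.25 (SE 0.65, adjusted p = 0.956 from limma). FS22, RB07 and RB10 had CD3E signals that went against their labels. Without these arrays the members' median was 0.28, and 267 of 7867 genes passed, none of them a member. They were set aside for signals in these same data. The B-cell lymphomas left were all of class E-J and the T-cell lymphomas left all of class K-N, so these calls are a description and not a test.

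Genes that build, regulate or feed the chain were also examined. Of the assembly factors outside the NDUFAF family, none of 29 passed in the B-cell set, with a median difference of 0.25, and none of 30 over all lymphomas, with 0.21. None of 16 genes of the citric acid cycle passed in either comparison, with medians of 0.24 and 0.13. Of 7 carriers, SLC25A5, which exchanges ADP for ATP across the inner membrane, rose in both. It averaged 12.96 ± 0.31 in the B-cell set and 11.88 ± 0.33 in its normals (SD), a difference of 1.08 (adjusted p = 0.0469 from limma), and 1.13 over all lymphomas (adjusted p = 0.024 from limma). Of 11 regulators of the mitochondrial genome and of respiration, POLG, the polymerase that copies mitochondrial DNA, fell in the B-cell set, to 7.59 ± 0.42 against 9.17 ± 0.11 in normals (SD), a difference of -1.58 (adjusted p = 0.0195 from limma). Over all lymphomas POLG had -0.82 and did not pass (adjusted p = 0.269 from limma). Of all genes, 3.48% rose and 7.39% fell in the B-cell set, and 1.03% rose and 2.6% fell over all lymphomas. Beside these shares, a single call in so short a list says little about the list. Mitochondrially encoded subunits were not analysed here.

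Markers of dividing cells and of other cell types moved with the same comparisons. Of 5 genes of dividing cells, 3 rose in each comparison, and their summed signal was 5997 to 18222 in the lymphomas and 3832 to 6647 in the normal nodes. Of 7 myeloid markers, 5 fell in the B-cell set and 4 over all lymphomas, with sums of 7682 to 40591 in the lymphomas and 24367 to 54828 in the normal nodes. All 3 endothelial markers tested fell in the B-cell set and 2 over all lymphomas, with sums of 941 to 3262 in the lymphomas and 6973 to 11312 in the normal nodes. Of 6 stromal markers tested, 5 fell in the B-cell set and 2 over all lymphomas, with sums of 436 to 6704 in the lymphomas and 5988 to 7809 in the normal nodes. A sum is led by its brightest genes, such as LYZ at a log2 signal of 15.27 in RB16. The mean log2 signals of these lists did not overlap between lymphomas and normal nodes. They were 8.67 to 10.32 and 7.93 to 8.43 for dividing cells, and 7.37 to 9.42 and 9.81 to 11.25 for myeloid markers. Endothelial markers had 6.52 to 8.28 and 8.48 to 9.21, and stromal markers 5.27 to 8.42 and 8.90 to 9.24. Of 7 T-cell markers, 3 fell in the B-cell set, and 1 of 4 B-cell markers rose there. The sums of T-cell markers were 2847 to 63070 in the lymphomas and 13973 to 31506 in the normal nodes, and those of B-cell markers 139 to 26317 in the lymphomas and 4875 to 8520 in the normal nodes. The part of these markers in the differences of the members was not tested. The 4 muscle markers were too dim to test.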

How the data were processed

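RNA from lymph node aspirates was amplified and hybridised to GeneChip Canine Genome V2.0 Arrays. The deposited values are MAS5 signals, linear probe set intensities that the authors scaled to a trimmed mean of 500 on each array. Trimming and scaling fix each array's overall brightness, so a difference is relative to the other probe sets. Probe sets with exactly 1 gene symbol in the platform annotation were kept (29254 of 43035, the others being 439 with several symbols, 13231 with none and 111 controls). Signals were taken as log2 and averaged per gene over probe sets. Of the 139 member probe sets, 68 carry the suffix _s and 8 the suffix _x, which mark probes shared with other transcripts.

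Tests were limited to genes whose signal reached 100 on at least 3 of the compared arrays. They used lmFit and eBayes of limma 3.58.1 (R 4.3.3), Benjamini-Hochberg adjustment over all genes tested, and a threshold of 0.05. Comparisons were made for the B-cell set against 3 normal nodes, all lymphomas against 3 normal dogs with the nodes of dog 3024 averaged, and B-cell against T-cell lymphomas. Each lymphoma is 1 dog. Fits were tested on simulated data. The date and batch of each array are not given in the sources used here. Alternatives changed the filter, the normalization, the floor, the summary of probe sets, the test and the arrays included. Named by rule were members past the threshold, alternative isoforms, the ring subunit genes and complex II, the 3 brightest, 3 dimmest and 3 most variable members, and the 5 with the largest class difference in each direction, and other members named were chosen after their values were seen. The members and lists were chosen with earlier results of these data known.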

Additional observations from a re-analysis of the deposited data

Results flagged for a closer look

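Among the 81 groups of arrays examined for 27 named members, 2 held a single array far from the rest, and chance marks about 1 in 20 such groups. Both were the 4 normal nodes, and in both the distant array was 3024l, the node with the GAPDH ratio of 23.2. For NDUFA4L2 its log2 signal was 2.59, whereas the nearest other node had 5.75, a gap that took 0.874 of the range, and all 4 values lay below a signal of 100. For SDHD its log2 signal was 7.84, whereas the nearest other node had 9.92, a gap that took 0.849 of the range. The first comparison does not use 3024l, and the second averages it with 3024r.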

How the results depend on the processing

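The members' median difference kept its direction under every alternative run, between 0.32 and 0.60 in the B-cell set, 0.39 and 0.59 over all lymphomas and 0.13 and 0.30 between B-cell and T-cell lymphomas. The number of members called did not, and neither did the number of all genes called in either direction. In the B-cell set the main fit called 902 of 8295 genes. It was 193 of 15115 with no filter, 232 of 8154 with 3024l in place of 3024r and 1807 of 8295 with signals raised to at least 100. Quantile normalization gave 943 of 8295, centred arrays 752 of 8295 and a single fit of all 14 arrays 423 of 9400. The brightest probe set of each gene gave 1060 of 9341. Over all lymphomas the main fit called 341 of 9400 genes, and it was 112 of 15115 with no filter and 959 of 9400 with raised signals. Centred arrays gave 276 of 9400, the filter at 200 gave 422 of 6964 and log2(signal + 50) gave 744 of 9400. The mean of linear signals gave 557 of 9828, and leaving out RB07, RB10, FS25 and NE45 gave 943 of 8786. Counts over all genes were not taken for the Welch test. In the B-cell set the 5 rises became 0 with no filter on dim genes or with the methods' Welch test, 1 with 3024l in place of 3024r, 2 with arrays centred on their median or when a single fit held all 14 arrays, 3 with quantile normalization, 8 with the brightest probe set of each gene and 11 with signals raised to at least 100. Leaving out 1 array gave between 0 and 6, with 0 without 63, 2970 or 3024r and 2 without FS21, NE42 or RB16. The count of falls, 0, became 1 with signals raised to at least 100 and was between 0 and 1 with 1 array left out. Over all lymphomas the 3 rises became 0 with no filter, 1 with centred arrays, 6 with the filter at 200, 7 with log2(signal + 50), with the mean of linear signals or without RB07, RB10, FS25 and NE45, 10 with signals raised to at least 100 and 12 with the methods' Welch test. Leaving out 1 array or dog gave between 0 and 3. The cause was not tested.

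Scaling moved the median of all genes in the B-cell set from -0.06 to 0.06 with quantile normalization and 0.09 with centred arrays, a shift over 0.1, and the members' median stood 0.50, 0.25 and 0.50 above it. Among single named members, 86 values lost and 24 gained a call under an alternative. No called member changed sign, whereas 51 values of members that had not been called did, SDHB in the B-cell set among them. Averages over bright probe sets, single probe sets and levels of signal were chosen after seeing the data. No paired analysis was possible because the labels number only the nodes of 1 dog, and a model with the dog as a random block could not be fitted, since only that dog has more than 1 array. The number of arrays and dim probe sets limit these calls.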
